A study of Mus musculus with 8 samples.

Results

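Messenger RNA levels of 10 genes that signal DNA damage or carry that signal in meiotic prophase were followed in spermatogenic cells of mice lacking H3f3b, the gene of the histone variant H3.3B. The genes are Atr, Atrip, Topbp1, Rpa2, Chek1, Atm, Mdc1, Rnf8, Brca1 and Parp1. They were taken by gene name from the deposited gene table, which lists 29880 genes, and all 10 were found and had enough reads to be tested. The 8 libraries fall into 4 groups of 2: KO post-meiotic, WT post-meiotic, KO meiotic and WT meiotic cells. The KO genotype is labelled H3.3BKO/KO :Actin Cre WT and the WT genotype H3.3BWT/WT :Actin Cre WT, and the study's supplement draws the KO allele with all coding exons of H3f3b removed, in no cell type in particular. All males are labelled C57BL/6 and between 3 and 6 months old. The fractions came from sedimentation of testis cells in an albumin gradient, after suspension in a medium that by the labels held sodium butyrate, the post-meiotic one being mainly round spermatids with a few elongated ones and the meiotic one mainly spermatocytes. The labels describe total RNA from the tubules of 1 mouse and fractions that were pooled, and do not say how many mice entered a library. The labels do not say whether libraries of the same number share an animal. The p-values below rest on the spread between the 2 libraries within groups, estimated jointly over all 4 groups and with information shared across genes.

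In meiosis, programmed double-strand breaks are first met by the kinase ATM, and single-stranded DNA coated with the RPA complex recruits the kinase ATR through its partner ATRIP. TOPBP1 activates ATR. In pachytene spermatocytes ATR, brought to unsynapsed axes with the help of BRCA1, phosphorylates the histone H2AX over the X and Y chromosomes, and MDC1 binds that mark and carries it, with ATR and TOPBP1, into the chromatin loops. RNF8 is a ubiquitin ligase that docks on MDC1, CHEK1 is the kinase that ATR activates, and PARP1 is an enzyme that adds ADP-ribose chains at DNA breaks.

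Total gene counts per library ran between 57853283 and 92836630, and TMM factors between 0.922 and 1.07. The targeted gene H3f3b had 407 and 442 reads in KO post-meiotic cells, against 14727 and 12130 in WT post-meiotic cells, and 621 and 1107 reads in KO meiotic cells, against 36885 and 32641 in WT meiotic cells. Of 8 spermatocyte markers, 5 were called higher and 2 lower in KO than in WT meiotic cells, with summed levels of 3031 and 3308 CPM (read counts scaled to a common library size after TMM) in KO and 2874 and 2912 CPM in WT. In post-meiotic cells 5 of these markers were called higher and 1 lower in KO, with 898 and 942 CPM in KO and 814 and 819 CPM in WT. Round spermatid markers summed to 6410 and 7661 CPM in KO meiotic cells against 8278 and 9312 CPM in WT meiotic cells (0 of 8 called higher, 2 lower), and to 23097 and 24109 CPM in KO post-meiotic cells against 26245 and 26625 CPM in WT post-meiotic cells (0 higher, 3 lower). Of markers of other testis cells, 5 of 8 for leukocytes, 4 of 8 for peritubular cells and fibroblasts, 4 of 5 for red cells, 3 of 7 for Sertoli cells and 2 of 8 for spermatogonia were called higher, and 2 of 8 for endothelial cells lower, in KO post-meiotic cells. Of 8 Leydig cell markers 1 was called higher there, with summed levels of 41.5 and 41.0 CPM in KO and 31.3 and 21.3 CPM in WT. In KO meiotic cells 3 of 8 spermatogonial markers (summed to 133 and 151 CPM in KO against 127 and 119 CPM in WT) and 2 of 8 leukocyte markers (18.8 and 14.1 CPM in KO against 7.93 and 8.40 CPM in WT) were called higher and 2 of 8 Leydig cell markers lower (228 and 148 CPM in KO against 264 and 217 CPM in WT). Of 8 markers of peritubular cells and fibroblasts, 1 was called higher and 1 lower in KO meiotic cells. Leukocyte markers summed to 94.4 and 112 CPM in KO post-meiotic cells and 50.3 and 50.7 CPM in WT post-meiotic cells, and no marker found in the file was at 0 in a group. The part of these shifts in the values of the 10 genes was not tested.

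The genes lie on 5 chromosomes, and 5 of them are on chromosome 9, which holds 4.92% of the genes in the file. In mm9, the build of the files, they are Chek1 (chr9:36516067-36534650, minus strand), Atm (chr9:53247254-53344845, minus), Atr (chr9:95758016-95852063, plus), Topbp1 (chr9:103207545-103252762, plus) and Atrip (chr9:108960447-108976638, minus). Rnf8 (chr17:29751735-29840304, plus) and Mdc1 (chr17:35978460-35996615, plus) are on chromosome 17, Brca1 (chr11:101350078-101413269, minus) on 11, Rpa2 (chr4:132324247-132334667, plus) on 4 and Parp1 (chr1:182499086-182531384, plus) on 1. The counts are 1 value per gene, and 2 of the genes share much of their exons with a neighbour on the same strand. Exons of Ftsjd2 cover 41.6% of the exon bases of Rnf8, and exons of Trex1 cover 25.8% of those of Atrip. The gene identifier of Trex1 was not in the deposited gene table, so no counts of Trex1 were analysed here. How shared reads were assigned is not given in the sources used here, so the levels of Rnf8 and Atrip are uncertain. Atr shares 3.98% of its exon bases with 1700065D16Rik and Gm16794 on the opposite strand, which had 1090 and 358 reads over all libraries against 421215 for Atr.

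The 250 bases before the RefSeq start were found for all 10 genes in GRCm38.p6, another build than that of the counts. Those of Atr, which was lower in KO meiotic cells, and of Atm, Topbp1 and Rpa2, which were higher in KO cells at both stages, are shown 5′ to 3′ on the strand of the gene. Capitals mark matches, on either strand, to the CCAAT box, the GC box, the MYB motif and the NRF1 motif, spelled out with their counts, and no match to 1 of them overlapped a match to another.
Atr (chr9:95857347-95857596, plus strand): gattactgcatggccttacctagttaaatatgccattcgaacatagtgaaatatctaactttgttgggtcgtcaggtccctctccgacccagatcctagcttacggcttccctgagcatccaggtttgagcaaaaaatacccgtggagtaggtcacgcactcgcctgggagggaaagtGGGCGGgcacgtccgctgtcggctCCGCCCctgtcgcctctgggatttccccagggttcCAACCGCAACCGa
Atm (chr9:53536672-53536921, minus strand): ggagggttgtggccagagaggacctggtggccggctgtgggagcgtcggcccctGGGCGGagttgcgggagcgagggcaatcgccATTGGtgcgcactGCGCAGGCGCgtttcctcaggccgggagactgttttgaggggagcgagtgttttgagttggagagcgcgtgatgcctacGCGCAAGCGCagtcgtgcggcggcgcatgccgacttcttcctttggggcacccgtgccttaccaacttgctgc
Topbp1 (chr9:103305077-103305326, plus strand): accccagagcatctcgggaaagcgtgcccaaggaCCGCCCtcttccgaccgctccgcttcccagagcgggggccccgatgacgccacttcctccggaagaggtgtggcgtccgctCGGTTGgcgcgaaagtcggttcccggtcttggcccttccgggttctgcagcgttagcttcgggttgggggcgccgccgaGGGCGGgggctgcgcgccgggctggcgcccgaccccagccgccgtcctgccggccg
Rpa2 (chr4:132768110-132768359, plus strand): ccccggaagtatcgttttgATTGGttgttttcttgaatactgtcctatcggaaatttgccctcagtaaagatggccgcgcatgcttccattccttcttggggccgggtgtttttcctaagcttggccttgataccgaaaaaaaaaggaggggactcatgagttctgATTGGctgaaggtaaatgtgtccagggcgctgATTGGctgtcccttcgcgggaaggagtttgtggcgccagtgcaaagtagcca

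The CCAAT box, with these 5 letters, was present in 6 of the 10 windows (Rpa2 3 times, Atm, Atrip, Brca1, Mdc1 and Rnf8 once each), against 33.8% of the 32851 promoters of that length. The GC box, GGGCGG, was in 5 (Atr and Topbp1 with 2 matches, Parp1 with 3, Atm and Rnf8 with 1), against 32.7% of promoters. The MYB motif, CNGTTG, was in 3 (Atr 2 matches, Atrip and Topbp1 1 each), against 29.3%, and the NRF1 motif, a GCGC on each side of any 2 bases, was in Atm alone (2 matches), against 4.98%. The Atr and Rpa2 windows had no kind of match in common, whereas Topbp1 had the same kinds as Atr, and Atm shared the GC box with Atr. CpG counts ran between 11 in Rpa2 and 33 in Topbp1, against a median of 6 over all promoters, of which 35.6% had at least 11. A match is a description of the letters and not a binding site.

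Atr had by far the most reads per length of the 10 genes in every group. Divided by the bases of its exons, Atr stood at 40.2 CPM per kb in KO post-meiotic cells, 42.6 in WT post-meiotic cells, 128 ± 9.41 in KO meiotic cells and 151 ± 1.43 in WT meiotic cells (SD, n = 2). In KO meiotic cells it was followed by Parp1 at 41.1, Topbp1 at 32.2, Mdc1 at 26.1, Rpa2 at 12.1 and Brca1 at 5.09 CPM per kb, none overlapping its neighbours. Below them, Atrip at 4.00 overlapped Atm at 3.96, and Rnf8 at 3.49 overlapped Chek1 at 3.32 CPM per kb. The places of Rnf8 and Atrip in any group are uncertain, as 41.6% and 25.8% of the exon bases used are shared with a neighbour. In WT meiotic cells Mdc1 at 33.1 stood above Topbp1 at 27.5 CPM per kb, the reverse of their order in KO, and Atm was last at 2.76, below Rnf8, Atrip and Chek1 at 3.18, 3.18 and 3.10, which could not be put in order. The ratio of Atr to Parp1, the next gene, was 2.08 in KO post-meiotic, 2.27 in WT post-meiotic, 3.12 in KO meiotic and 3.52 in WT meiotic cells. By mean CPM without the division, Atr ranked 126 of the 20412 genes tested.

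**Figure D1:**
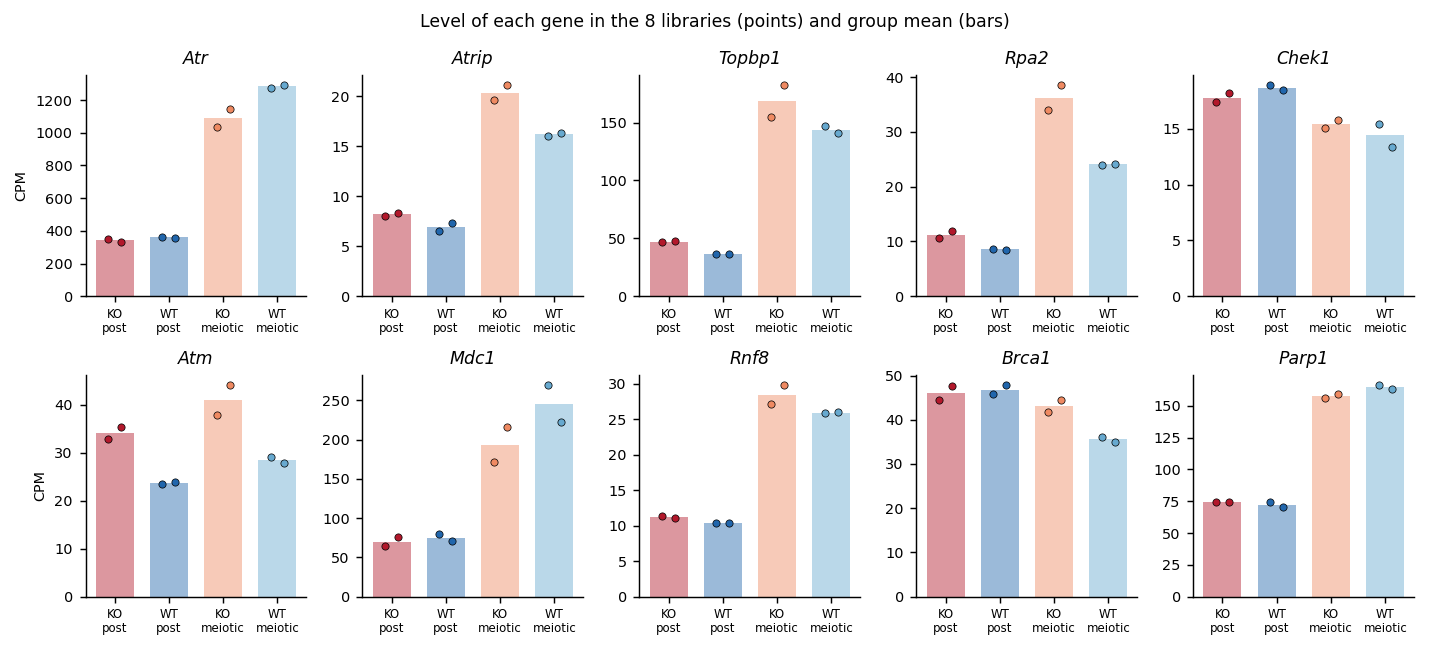
Levels in CPM (vertical axes, each starting at 0) of the 10 genes in KO post-meiotic, WT post-meiotic, KO meiotic and WT meiotic cells; points are single libraries and bars the mean of 2. Atr, Atrip, Topbp1, Rpa2, Mdc1, Rnf8 and Parp1 are at least 2-fold lower in post-meiotic cells of both genotypes, while Chek1 and Brca1 are not lower.

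Between the stages most of the 10 genes differed strongly. Relative to meiotic cells, KO post-meiotic cells had 8 of them lower and 0 higher at an adjusted p under 0.01 (edgeR), beside 61.0% of all tested genes called in either direction, 31.5% lower and 29.5% higher. There 1 gene, Chek1, was higher at an unadjusted p under 0.05, and DESeq2 called 0 higher. WT post-meiotic cells had 8 lower and 2 higher, Brca1 and Chek1, beside 62.0% called, 32.4% lower and 29.6% higher. The same 8 genes were lower in both genotypes, and 7 of them by more than 1 on the log2 scale, beside 11.8% of tested genes in KO and 14.5% in WT cells. The median log2 change of the 10 genes was −1.33 in KO and −1.27 in WT cells, against 0.05 and 0.01 over all tested genes. The libraries of the stages did not overlap for 9 of 10 genes in KO cells (84.5% of tested genes) and 10 of 10 in WT cells (84.9%). In both genotypes 8 of 8 round spermatid, peritubular and leukocyte markers were also higher in post-meiotic cells. So were 5 of 8 endothelial and 5 of 5 red cell markers. Of 8 spermatocyte markers 7 were lower and 1 higher there, and 8 of 8 Leydig cell and 5 of 8 spermatogonial markers were lower. Of 7 Sertoli cell markers, 2 were lower in WT and 2 higher in KO post-meiotic cells. The part of these shifts in the stage changes of the 10 genes was not tested. In bulk fractions, fewer cells of a type and less RNA per cell cannot be told apart.

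**Figure D2:**
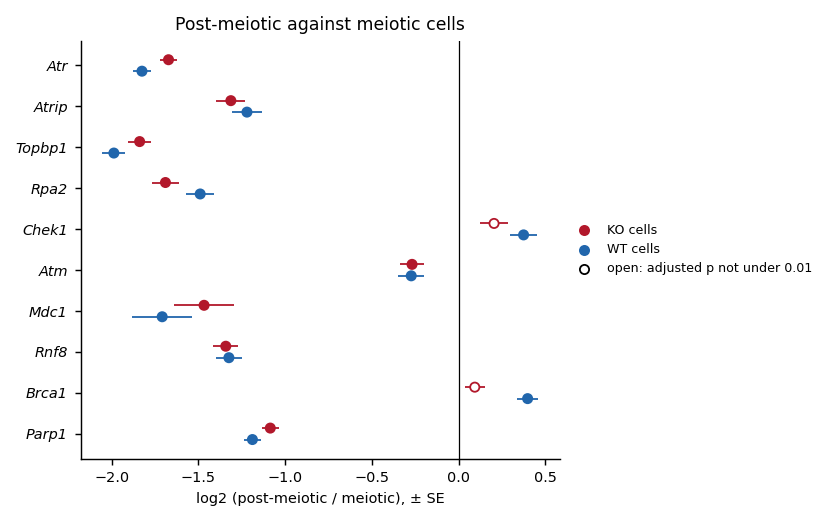
Log2 ratio of post-meiotic to meiotic cells (horizontal axis) for each gene in KO and WT cells, with bars of 1 standard error of the edgeR fit; open points have an adjusted p not under 0.01. The 2 open points are Chek1 (0.20) and Brca1 (0.09) in KO cells, and the lowest point is Topbp1 in WT cells (−1.99).

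Between the genotypes the differences were smaller. In KO meiotic cells 5 of the 10 genes were higher (Atrip, Topbp1, Rpa2, Atm and Brca1) and Atr was lower than in WT meiotic cells, beside 17.5% of all tested genes called, 8.98% higher and 8.55% lower. By DESeq2 only 3 were called higher in KO meiotic cells, without Atrip and Topbp1. With library totals in place of TMM 0 were called lower. In KO post-meiotic cells 3 were higher (Topbp1, Rpa2 and Atm) and 0 lower, beside 24.0% called, 12.4% higher and 11.6% lower. By edgeR 0 were lower there at an unadjusted p under 0.05, and by DESeq2 0 were called lower. No change between genotypes passed 1 on the log2 scale, a size that 2.18% of tested genes reached in meiotic and 3.05% in post-meiotic cells. The median log2 change of the 10 genes was 0.08 in post-meiotic and 0.18 in meiotic cells, against 0.04 and 0.0037 over all tested genes. KO and WT libraries did not overlap for 8 of 10 genes in post-meiotic cells (71.0% of tested genes) and 9 of 10 in meiotic cells (63.0%). Whether the KO change differed between the stages was tested by the interaction of stage and genotype, and 0 of 10 genes were called (edgeR; 0 by DESeq2), beside 2.60% of tested genes, while 2 (Atr and Brca1) had an unadjusted p under 0.05.

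**Figure D3:**
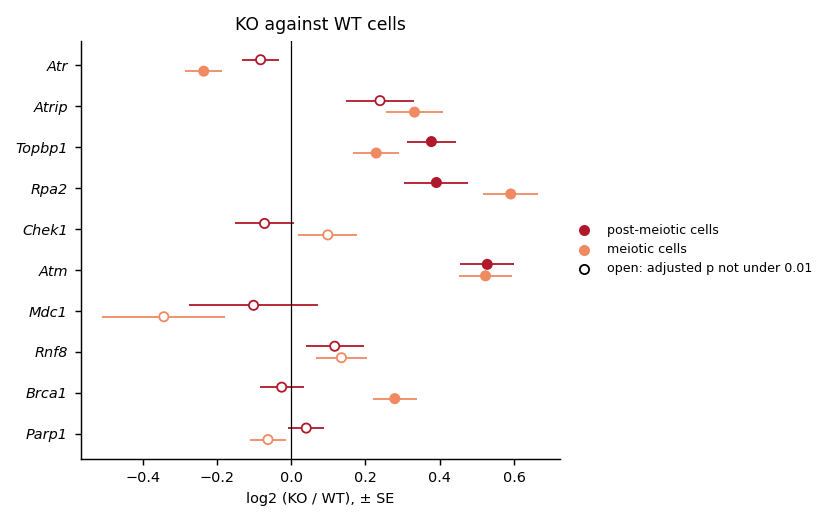
Log2 ratio of KO to WT cells (horizontal axis) for each gene in post-meiotic and meiotic cells, with bars of 1 standard error of the edgeR fit; open points have an adjusted p not under 0.01. Atm (0.53 and 0.52), Rpa2 (0.39 and 0.59) and Topbp1 (0.38 and 0.23) are filled at both stages, and Atr (−0.24) is the only filled point left of 0.

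Atr, the kinase itself, measured 351 and 333 CPM in KO post-meiotic cells, 365 and 359 CPM in WT post-meiotic cells, 1033 and 1147 CPM in KO meiotic cells and 1275 and 1292 CPM in WT meiotic cells. Both KO meiotic libraries were below both WT meiotic libraries, and all meiotic libraries were above all post-meiotic ones. The KO change in meiotic cells was −0.24 ± 0.050 (log2 ± SE, edgeR adjusted p = 0.00139). It was −0.16 without KO meiotic replicate 1 (edgeR adjusted p = 0.0292) and −0.17 with library totals in place of TMM (edgeR adjusted p = 0.0114), so that this call rests on that library and on the scaling. In post-meiotic cells the KO change was −0.08 ± 0.050 (edgeR adjusted p = 0.208). The stage change was −1.67 ± 0.051 in KO cells (edgeR adjusted p = 4.65e-16) and −1.83 ± 0.052 in WT cells (edgeR adjusted p = 8.68e-17).

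Atrip, whose product binds ATR and brings it to RPA-coated DNA, went the other way from Atr in KO meiotic cells. It measured 8.04 and 8.35 CPM in KO post-meiotic, 6.53 and 7.36 CPM in WT post-meiotic, 19.6 and 21.1 CPM in KO meiotic and 15.996 and 16.357 CPM in WT meiotic cells. The KO libraries lay above the WT libraries at both stages, with a change of 0.33 ± 0.078 in meiotic cells (edgeR adjusted p = 0.00324) and 0.24 ± 0.091 in post-meiotic cells (edgeR adjusted p = 0.0454, not called). The meiotic call was lost without KO meiotic replicate 2 (0.26, edgeR adjusted p = 0.0568), without WT meiotic replicate 1 (edgeR adjusted p = 0.0387) or 2 (edgeR adjusted p = 0.0239), and with DESeq2 (adjusted p = 0.0114). Per kb of exon, Atr exceeded Atrip 31.6 and 32.5 times in KO meiotic cells and 47.7 and 47.3 times in WT meiotic cells, with no overlap. In post-meiotic cells this ratio was 25.0 ± 1.61 in KO and 31.3 ± 3.03 in WT (SD, n = 2). As Atrip shares exon bases with Trex1, the size of these ratios is uncertain.

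Topbp1, the activator of ATR, measured 46.6 and 47.7 CPM in KO post-meiotic cells against 36.2 and 36.3 CPM in WT post-meiotic cells. In meiotic cells it measured 155 and 182 CPM in KO and 147 and 141 CPM in WT. The KO libraries were above the WT libraries at both stages, closely grouped in post-meiotic cells and apart from each other in KO meiotic cells. The KO change was 0.38 ± 0.067 in post-meiotic cells (edgeR adjusted p = 0.000307), and this call held under each alternative other than a log2 minimum of 1. In meiotic cells it was 0.23 ± 0.062 (edgeR adjusted p = 0.00974), just inside the threshold. That call was lost when any of 7 of the 8 libraries was left out, the lowest value being 0.09 without KO meiotic replicate 2 (edgeR adjusted p = 0.295), and it was also lost with RLE factors (edgeR adjusted p = 0.0169), with DESeq2 (adjusted p = 0.0208) and with only the 4 meiotic libraries in the fit (edgeR adjusted p = 0.0292). Topbp1 had the largest stage change of the 10 genes, −1.84 ± 0.065 in KO cells (edgeR adjusted p = 2.08e-14) and −1.99 ± 0.066 in WT cells (edgeR adjusted p = 7.42e-15).

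Rpa2, a subunit of the complex that coats single-stranded DNA, measured 10.7 and 11.8 CPM in KO post-meiotic cells against 8.71 and 8.44 CPM in WT post-meiotic cells, and 34.0 and 38.5 CPM in KO meiotic cells against 24.0 and 24.2 CPM in WT meiotic cells. The KO libraries were the higher ones at both stages, and the gap in meiotic cells exceeded the distance between the KO libraries. The KO change in meiotic cells was the largest of the 10 genes, 0.59 ± 0.073 or 1.51-fold (edgeR adjusted p = 6.51e-06), and held under each alternative other than a log2 minimum of 1. In post-meiotic cells it was 0.39 ± 0.086 (edgeR adjusted p = 0.00156), and that call was lost without KO post-meiotic replicate 2 (0.31, edgeR adjusted p = 0.0353) and without WT post-meiotic replicate 1 (edgeR adjusted p = 0.0111) or 2 (edgeR adjusted p = 0.0190). The stage change was −1.69 ± 0.078 in KO cells (edgeR adjusted p = 1.53e-13) and −1.49 ± 0.082 in WT cells (edgeR adjusted p = 1.75e-12).

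Chek1, the kinase downstream of ATR, was among the least changed of the 10 genes. It measured 17.4 and 18.2 CPM in KO post-meiotic, 18.9 and 18.5 CPM in WT post-meiotic, 15.1 and 15.8 CPM in KO meiotic and 15.4 and 13.4 CPM in WT meiotic cells. The genotypes overlapped in meiotic cells, and the KO change was not called at either stage, with −0.07 ± 0.079 in post-meiotic (edgeR adjusted p = 0.503) and 0.10 ± 0.079 in meiotic cells (edgeR adjusted p = 0.382). In contrast to its upstream kinase, Chek1 was higher after meiosis in WT cells, by 0.37 ± 0.080 (edgeR adjusted p = 0.000308). That call was lost with library totals (0.24, edgeR adjusted p = 0.0155) and without WT meiotic replicate 2 (0.26, edgeR adjusted p = 0.0184), and the change in KO cells was 0.20 ± 0.078 (edgeR adjusted p = 0.0262, not called).

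Atm, the kinase that answers double-strand breaks, was called higher in KO cells at both stages. It measured 32.8 and 35.3 CPM in KO post-meiotic cells against 23.4 and 23.8 CPM in WT post-meiotic cells, and 37.8 and 44.1 CPM in KO meiotic cells against 29.2 and 27.9 CPM in WT meiotic cells. Every KO library was above every WT library of either stage. The KO change was 0.53 ± 0.073 in post-meiotic cells (edgeR adjusted p = 2.09e-05) and 0.52 ± 0.071 in meiotic cells (edgeR adjusted p = 1.73e-05), 1.44-fold in both, and neither call was lost under an alternative other than a log2 minimum of 1. The difference between these changes was 0.0047 ± 0.10 (edgeR adjusted p = 0.986), and ranged over −0.10 to 0.13 when each library was left out in turn. Its stage change was the smallest of the called decreases, −0.27 ± 0.070 in KO (edgeR adjusted p = 0.00208) and −0.27 ± 0.073 in WT cells (edgeR adjusted p = 0.00249). The KO call was lost without KO meiotic replicate 2 (−0.16, edgeR adjusted p = 0.0650) or KO post-meiotic replicate 1 (edgeR adjusted p = 0.0266), and the WT call without WT post-meiotic replicate 1 (edgeR adjusted p = 0.0209) or WT meiotic replicate 1 (edgeR adjusted p = 0.0222).

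As Atm was higher and Atr lower in KO meiotic cells, the balance of these kinases' transcripts differed between the genotypes. Per kb of exon, Atr exceeded Atm 32.4 ± 1.12 times in KO meiotic cells and 54.7 ± 2.16 times in WT meiotic cells. In post-meiotic cells the ratio was 12.2 ± 1.11 in KO and 18.6 ± 0.478 in WT (SD, n = 2), again without overlap. These ratios were formed within a library, so they do not depend on its scaling.

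Mdc1, the adaptor that binds phosphorylated H2AX, varied most between replicates. It measured 64.7 and 75.5 CPM in KO post-meiotic, 79.6 and 70.7 CPM in WT post-meiotic, 171 and 216 CPM in KO meiotic and 269 and 222 CPM in WT meiotic cells. The genotypes overlapped in post-meiotic cells, and in meiotic cells the higher KO library was only just below the lower WT library. Its KO change was not called, with −0.10 ± 0.17 in post-meiotic (edgeR adjusted p = 0.696) and −0.34 ± 0.17 in meiotic cells (edgeR adjusted p = 0.204), so a KO change was not shown. The stage change was −1.47 ± 0.17 in KO (edgeR adjusted p = 0.000898) and −1.71 ± 0.17 in WT cells (edgeR adjusted p = 0.000457).

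Rnf8, the ubiquitin ligase, measured 11.42 and 11.05 CPM in KO post-meiotic, 10.4 and 10.4 CPM in WT post-meiotic, 27.1 and 29.8 CPM in KO meiotic and 25.86 and 26.05 CPM in WT meiotic cells. KO libraries were above WT libraries at both stages, but the changes, 0.12 ± 0.078 in post-meiotic (edgeR adjusted p = 0.252) and 0.14 ± 0.068 in meiotic cells (edgeR adjusted p = 0.149), were not called. The stage change was −1.34 ± 0.073 in KO (edgeR adjusted p = 1.71e-12) and −1.32 ± 0.074 in WT cells (edgeR adjusted p = 2.38e-12). Ftsjd2, which shares exons with Rnf8, changed by −0.88 ± 0.10 in KO (edgeR adjusted p = 3.02e-07) and −1.19 ± 0.11 in WT cells (edgeR adjusted p = 5.12e-09), and its part in the Rnf8 values was not tested.

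Brca1, which acts at unsynapsed axes upstream of ATR, measured 44.4 and 47.7 CPM in KO post-meiotic and 45.9 and 47.8 CPM in WT post-meiotic cells. In meiotic cells it measured 41.8 and 44.4 CPM in KO and 36.1 and 35.0 CPM in WT. The genotypes overlapped after meiosis and were apart in meiosis, where the WT libraries were the lowest of all 8. The KO change was 0.28 ± 0.060 in meiotic cells (edgeR adjusted p = 0.00153) and −0.03 ± 0.060 in post-meiotic cells (edgeR adjusted p = 0.770). The meiotic call was lost without KO meiotic replicate 2 (0.22, edgeR adjusted p = 0.0289) and without WT meiotic replicate 1 (edgeR adjusted p = 0.0102) or 2 (edgeR adjusted p = 0.0278). The test of the difference between the stages gave −0.30 ± 0.084 (edgeR adjusted p = 0.0293), which missed the threshold, so a difference between the stages was not shown. In WT cells Brca1 was higher after meiosis by 0.40 ± 0.060 (edgeR adjusted p = 6.21e-06), while in KO cells the stage change was 0.09 ± 0.059 (edgeR adjusted p = 0.171), which is the same interaction read the other way.

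Parp1 measured 74.3 and 74.4 CPM in KO post-meiotic, 74.2 and 70.4 CPM in WT post-meiotic, 156 and 159 CPM in KO meiotic and 166 and 164 CPM in WT meiotic cells. The genotypes did not overlap at either stage, but by narrow margins, KO being above WT in post-meiotic and below it in meiotic cells, and neither difference was called, with 0.04 ± 0.049 in post-meiotic (edgeR adjusted p = 0.546) and −0.06 ± 0.047 in meiotic cells (edgeR adjusted p = 0.350). The stage change was −1.09 ± 0.048 in KO cells (edgeR adjusted p = 8.61e-14) and −1.19 ± 0.049 in WT cells (edgeR adjusted p = 1.90e-14).

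The 10 genes thus followed several courses over the 8 libraries. Their profiles were compared as the root mean square distance of log2 CPM after each gene's mean was removed, over 45 pairs. The nearest pairs were Brca1 and Chek1 (0.0833), Atrip and Rnf8 (0.102), Rnf8 and Parp1 (0.127) and Atr and Mdc1 (0.151), and the farthest was Topbp1 and Chek1 (1.11). Each gene was also compared with the 8948 other tested genes with a mean of at least 10 CPM. With symbols of clones and predicted genes passed over, the nearest to Atr were Dnajc3 (0.0529), Tnpo2 (0.0561) and Snhg3 (0.0693). The nearest to Brca1 in the same way were Phf17 (0.0424), Fpgs (0.0456) and Ccdc110 (0.05001). None of these 6 was one of the 10 genes.

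The other genes of the pathway were taken as a list of 33, all of which were tested. In KO meiotic cells 7 were higher and 0 lower, with 3 lower at an unadjusted p under 0.05 by edgeR and 0 lower by DESeq2, beside 8.98% of all tested genes higher and 8.55% lower. In KO post-meiotic cells 7 were higher and 4 lower, beside 12.4% and 11.6%. The same 5 genes, Uimc1, Rad9b, H2afx, Rpa3 and Clspn, were called higher at both stages in the main fit. Uimc1, also called RAP80, which brings a BRCA1 complex to ubiquitin chains, was 0.66 ± 0.076 higher in post-meiotic (edgeR adjusted p = 2.52e-06) and 0.74 ± 0.070 in meiotic KO cells (edgeR adjusted p = 2.04e-07), with 42.1 and 46.4 CPM in KO meiotic against 26.9 and 25.9 CPM in WT meiotic cells. Both exceed the change of any of the 10 genes at the same stage. Rad9b, a form of a subunit of the checkpoint clamp, was 0.50 ± 0.071 higher in post-meiotic (edgeR adjusted p = 2.46e-05) and 0.40 ± 0.061 in meiotic KO cells (edgeR adjusted p = 6.41e-05). Rpa3, a partner of Rpa2 in the RPA complex, was 0.65 ± 0.13 higher in meiotic KO cells (edgeR adjusted p = 0.000818). In post-meiotic cells Rpa3 was 0.58 ± 0.16 higher in KO (edgeR adjusted p = 0.00913), just inside the threshold. Its level there was low, with 2.13 and 2.44 CPM in KO against 1.58 and 1.47 CPM in WT. Rpa1 of the same complex was not called at either stage and had the opposite sign. Its KO change was −0.06 ± 0.048 in post-meiotic (edgeR adjusted p = 0.370) and −0.15 ± 0.048 in meiotic cells (edgeR adjusted p = 0.0230). Clspn, which helps ATR to activate CHEK1, was 0.47 ± 0.096 higher in meiotic KO cells (edgeR adjusted p = 0.00119) and 0.43 ± 0.11 in post-meiotic KO cells (edgeR adjusted p = 0.00557).

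In KO post-meiotic cells, Rad1 of the clamp was 0.57 ± 0.11 higher (edgeR adjusted p = 0.000410) and Timeless, a replication fork protein, 0.53 ± 0.11 higher (edgeR adjusted p = 0.00106). The 4 genes lower there were Rad17, the clamp loader (−0.23 ± 0.049, edgeR adjusted p = 0.00112), Rnf168, a ubiquitin ligase after RNF8 (−0.26 ± 0.058, edgeR adjusted p = 0.00172), Tipin, the partner of Timeless (−0.21 ± 0.059, edgeR adjusted p = 0.00852), and Bre, of the BRCA1 complex that Uimc1 recruits (−0.22 ± 0.062, edgeR adjusted p = 0.00855). With library totals none of these 4 was called lower (0). None of the 3 genes of the MRE11 complex, the 4 BRCA1 partners and the 4 genes of ADP-ribosylation was called in either comparison of genotypes (0). The interaction called 2 of the 33, Tipin and Rad17, beside 2.60% of all tested genes. With library totals or with the replicate block it called only 1 of them. Tipin had 49.7 and 51.8 CPM in KO post-meiotic cells against 60.6 and 56.7 CPM in WT post-meiotic cells, but 43.7 and 47.3 CPM in KO meiotic cells against 38.8 and 39.2 CPM in WT meiotic cells, and the genotypes were thus in opposite order at the stages.

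Between the stages, 23 of the 33 genes were lower and 2 higher in KO post-meiotic cells, beside 31.5% and 29.5% of all tested genes, and 23 were lower and 5 higher in WT post-meiotic cells, beside 32.4% and 29.6%, 21 being lower in both. H2afx, whose phosphorylated product MDC1 binds, had 65.2 and 81.3 CPM in KO post-meiotic, 49.1 and 54.5 CPM in WT post-meiotic, 345 and 345 CPM in KO meiotic and 258 and 255 CPM in WT meiotic cells, and was chosen after its values were seen. Its levels followed the stage like those of Mdc1, but unlike Mdc1 it was higher in KO meiotic cells (0.43 ± 0.087, edgeR adjusted p = 0.00551). By the smallest p-values, Parg, which removes ADP-ribose chains (−1.78 in KO and −1.86 in WT cells), Rad9b (−1.64 and −1.74) and Rad1 (−1.69 and −2.08) led the decreases of both genotypes, with Timeless in KO (−1.63) and Bard1, the partner of BRCA1, in WT cells (−1.58). Ube2n, the ubiquitin-conjugating enzyme that works with RNF8, was 1.07 higher in both genotypes, Parp3 was 0.66 higher in KO and 0.78 in WT cells, and Tipin (0.59) and Rad17 (0.39) were higher in WT cells only by this threshold.

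**Figure D4:**
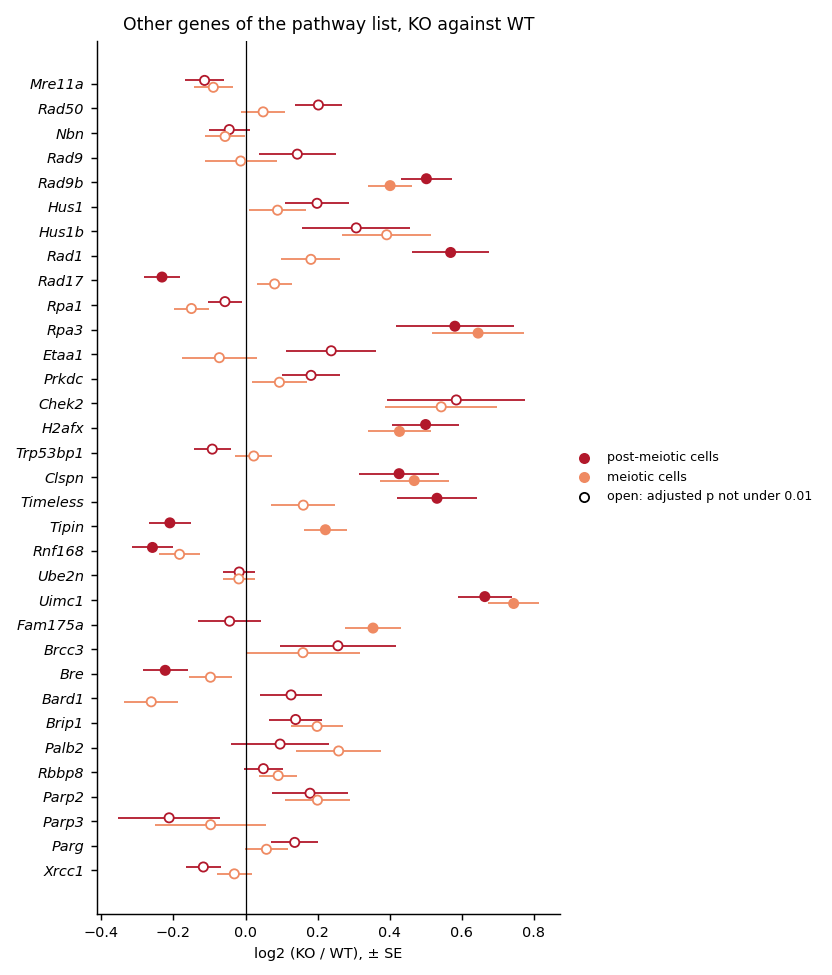
Log2 ratio of KO to WT cells (horizontal axis) of the 33 other pathway genes in post-meiotic and meiotic cells, with bars of 1 standard error of the edgeR fit; open points have an adjusted p not under 0.01. Uimc1, Rad9b, H2afx, Rpa3 and Clspn are filled right of 0 at both stages, and Tipin is filled on opposite sides.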

How the data were processed

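Strand-specific total RNA libraries of sedimented testis cells were sequenced. The submitters' processing notes name TopHat2 2.0.14, Bowtie2 2.1.0, mm9 and HTSeq 0.6.1. The deposited gene table holds the authors' raw HTSeq counts on Ensembl gene models, and these counts were used as they are. It also holds the authors' DESeq2 log2 changes and p-values, which were not used. Fits were made in R 4.3.3 with edgeR 4.0.16 (expression filter, TMM, robust quasi-likelihood) on all 8 libraries and 4 groups, with adjustment by Benjamini and Hochberg over 20412 genes and a limit of 0.01. The standard error is the log2 change divided by the square root of F. Alternatives were RLE factors, library totals, DESeq2 1.42.0, no filter, only the libraries compared, a replicate block, leaving out each library, and a log2 minimum of 1. The fit was also run on simulated data with 200 genes changed, and the outcome of that run is not used here. Exon lengths and overlaps were taken from GENCODE M1 (mm9). The members and lists were chosen with earlier results of these data known. Beside the 10 genes, the text names H3f3b, up to 4 pathway genes per direction and comparison by smallest p, the 3 nearest profiles of Atr and Brca1, and overlapping genes. Over the 8 libraries, summed marker levels ran between 60.1 and 150.5 CPM for spermatogonia, 61.0 and 113 for Sertoli cells, 21.3 and 264 for Leydig cells, 37.4 and 331 for peritubular cells, 29.0 and 61.2 for endothelial cells and 2.35 and 32.8 for red cells.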

Additional observations from a re-analysis of the deposited data

Results flagged for a closer look

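In 3 named genes the KO change was called different between the stages by the test of the interaction in the main fit. For the pathway genes among them, Tipin and Rad17, these calls were not stable. With library totals or with the replicate block only 1 of the 2 was called. Both calls were lost in most of the fits that left out 1 library. For H3f3b, the deleted gene, the KO change was less negative in post-meiotic than in meiotic cells, by 0.72 ± 0.11 on the log2 scale (edgeR adjusted p = 0.00153), in a gene with few KO reads, and the difference was 0.57 without KO post-meiotic replicate 2 (edgeR adjusted p = 0.0138). For Tipin the difference was −0.43 ± 0.083 (edgeR adjusted p = 0.00410), its KO change being −0.21 in post-meiotic and 0.22 in meiotic cells. For Rad17 it was −0.31 ± 0.069 (edgeR adjusted p = 0.00939), with 108 and 103 CPM in KO post-meiotic cells against 125 and 122 CPM in WT post-meiotic cells, and 97.7 and 102 CPM in KO meiotic cells against 92.8 and 95.9 CPM in WT meiotic cells. The pathway genes called by this test numbered between 0 and 2 when each library was left out in turn.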

How the results depend on the processing

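Of the members' called changes, 350 values under alternatives kept their call, 28 lost it and 0 reversed; of those not called, 20 changed sign and 1 became called, Atrip in KO post-meiotic cells with library totals (0.34, edgeR adjusted p = 0.00566). Each group has 2 libraries, so leaving 1 out rests the group on a lone library assumed to vary like the others. Library totals moved the median of all genes by 0.10 in the post-meiotic KO comparison and −0.14 in the WT stage comparison.

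Signs changed for Atr (0.021), Brca1 (0.078), Mdc1 (0.0012) and Chek1 (0.031) in KO post-meiotic, Parp1 (0.0015) in KO meiotic, Brca1 (−0.0050) between the KO stages and the Rnf8 interaction (0.021) with library totals. They changed for Parp1 in KO post-meiotic cells with RLE (−0.0050) and DESeq2 (−0.0088), and for the Atm interaction with RLE (−0.020), no filter (−0.020) and DESeq2 (−0.022). Leaving out a library gave −0.090 to 0.0011 for Brca1 and −0.011 to 0.053 for Parp1 in KO post-meiotic cells, −0.011 to 0.20 for Chek1 in KO meiotic cells, and interactions of −0.10 to 0.13 for Atm and −0.082 to 0.059 for Rnf8.

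Genes called higher in KO post-meiotic cells numbered 2529, 4009 with library totals and 1538 with DESeq2, and genes lower 2376 and 1183 with library totals; genes lower in KO meiotic cells numbered 1745 and 1145 with library totals. With the log2 minimum these were 448 higher and 174 lower in post-meiotic and 269 and 176 in meiotic KO cells, 2239 and 2950 between the WT stages, 2102 and 2409 between the KO stages, and 102 and 1 for the interaction. The interaction otherwise called 343 higher (705 with no filter, 528 with the replicate block) and 188 lower (98 with library totals, 546 with no filter, 354 with DESeq2). Members called became 3 higher with DESeq2 and 0 lower with library totals in KO meiotic cells and 1 higher with library totals between the WT stages. With the log2 minimum 0 were called higher or lower in the KO comparisons and 0 higher between the WT stages.

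Without 1 library, genes called higher and lower ranged over 1003 to 2640 and 1371 to 2605 (KO post-meiotic), 919 to 1833 and 1161 to 1649 (KO meiotic), 4708 to 5954 and 5847 to 6575 (KO stages), 5103 to 5971 and 5940 to 6696 (WT stages), and 25 to 339 and 7 to 181 (interaction). Members called ranged over 2 to 3 higher (KO post-meiotic), 2 to 5 higher and 0 to 1 lower (KO meiotic), 7 to 8 lower (KO stages), and 1 to 2 higher and 7 to 8 lower (WT stages). Pathway genes ranged over 3 to 6 higher and 0 to 4 lower (KO post-meiotic) and 2 to 7 higher (KO meiotic).

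Differences between replicates 1 and 2 correlated weakly between groups (−0.062 to 0.11), most between the stages of a genotype (0.098 in KO, 0.11 in WT cells). With 2 libraries per group this cannot decide whether replicate numbers pair the libraries. The replicate block left every call of the 10 genes in place; 2 pathway genes were then lower in KO post-meiotic cells and 1 had a lower interaction. With RLE 1 pathway gene was lower in KO meiotic cells, and with library totals 0 were lower in KO post-meiotic cells and 1 had a lower interaction.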
